A study of Homo sapiens with 12 samples.

Results

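The core autophagy machinery was followed at the level of messenger RNA through 38 genes, out of 58735 in the table of counts, taken as the rows whose Ensembl identifiers map to a fixed list of symbols with the cargo receptors left out. All 38 were found, all passed the filter on low counts, and they fall into 16 initiation genes, 14 conjugation genes and 8 genes of fusion and maturation. The RNA came from KP4 and MiaPaca2, established human cell lines labelled as pancreatic ductal adenocarcinoma cells, grown in DMEM with 10% fetal bovine serum. Each line was exposed for 48 h to DMSO as solvent control or to trametinib at 100 nM, a drug that blocks the ERK-activating kinases MEK1 and MEK2, which gave 4 groups (KP4 DMSO, KP4 trametinib, MiaPaca2 DMSO, MiaPaca2 trametinib) of 3 libraries each. Libraries were made from polyadenylated RNA. The labels do not say whether the 3 libraries of a group came from separate cultures, so each p-value measures the spread between these libraries, which may be technical.

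Macroautophagy encloses cytoplasm in a double membrane, the autophagosome, and delivers it to the lysosome. The ULK kinase complex starts the process, a phosphatidylinositol 3-kinase complex marks the membrane with PI3P, lipid transfer and scrambling by ATG2 and ATG9 let it grow, and ubiquitin-like conjugation attaches ATG8 proteins (LC3 and GABARAP) to it before tethers and SNARE proteins fuse it with lysosomes. Pancreatic ductal adenocarcinoma is known for high basal autophagy, and inhibition of the RAF-MEK-ERK cascade is known to raise autophagic flux in its cell lines; neither flux nor protein was measured here.

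Total counts per library ran from 20293688 to 28018129, and the members together took 0.2413% to 0.2917% of them. ERK output fell in both lines, since SPRY4, DUSP6, ETV4, ETV5 and EGR1 changed by between −6.84 and −4.29 on the log2 scale. MiaPaca2 DMSO replicate 2 stood apart from its group: the chi-square between libraries, divided by its degrees of freedom, was 15.2 and 13.9 against replicates 1 and 3, 8.04 between those 2, and 2.02 to 2.92 for pairs in the other groups. Replicate 2 was the control nearest to the mean of the MiaPaca2 trametinib libraries for 45.7% of the 10330 genes called in that line. Replicates 1 and 3 were nearest for 29.7% and 24.7%. Among the 29 members called there, replicate 2 was nearest for 16 (55.2%), replicate 1 for 4 and replicate 3 for 9. The ductal gene CFTR was at 0 counts in all 4 groups, and the summed level of 9 ductal markers went from 362-375 to 226-234 CPM (counts relative to library size, scaled between libraries by TMM) in KP4 and from 1829-2201 to 738-755 CPM in MiaPaca2. The summed level of 5 fibroblast markers was 72.5-123 CPM in MiaPaca2 DMSO and 217-229 CPM in MiaPaca2 trametinib. In KP4 it was 6.85-8.24 CPM with DMSO and 10.5-10.8 CPM with trametinib. The summed level of the 3 mesenchymal markers VIM, ZEB1 and CDH2, nearly all VIM, was 3805-3828 CPM in KP4 DMSO and 3298-3308 CPM in trametinib, and 5873-6540 and 5032-5130 CPM in MiaPaca2, while CDH2 alone rose in both lines (0.41 and 1.11 on the log2 scale). The mitochondrial share of a library was 4.16% to 4.38% with DMSO and 5.48% to 5.75% with trametinib for KP4, and 2.25% to 3.32% and 4.02% to 4.25% for MiaPaca2, where DMSO replicate 2 was the highest control. The 4 acinar markers, the T cell gene CD3E, the B cell gene MS4A1 and the endothelial gene KDR were at 0 counts in every library. The part of these shifts in the results was not tested, and in bulk RNA fewer cells of a type and less RNA per cell cannot be told apart.

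Trametinib raised more of the machinery than it lowered, and the steps moved unequally. In KP4, 15 of 38 members were higher and 5 lower after trametinib, or 52.6% of them, where 48.1% of all 16133 genes tested were called (23.9% higher and 24.1% lower; edgeR's quasi-likelihood test, Benjamini-Hochberg adjusted p under 0.05 over all genes tested, as in every call here). In MiaPaca2, 23 were higher and 6 lower, or 76.3%, where 64% of all genes were called (34.4% higher and 29.7% lower). The KP4 total is thus close to its background and the excess lies in the direction. Fitted on the 6 libraries of a line alone, the counts became 19 higher and 5 lower in KP4 and 19 higher and 6 lower in MiaPaca2 (30% and 31.2% of all genes higher), and the higher counts of the lines were then equal. The median log2 fold change of the members was 0.09 in KP4, where the median of all genes was 0, and 0.225 in MiaPaca2, where it was 0.052. Most changes were small: 4 members in KP4 and 13 in MiaPaca2 passed the test with a log2 fold change of at least 0.5 in size, which 19.9% and 37.7% of all genes did. All 3 treated libraries were above all 3 controls for 19 members in KP4 (29.6% of all genes) and 22 in MiaPaca2 (34.6%), and below them for 5 (30.5%) and 7 (29.8%).

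Most fusion genes rose in both lines and none was called lower, initiation genes rose more often than they fell, and conjugation was split between its enzymes and its ATG8 substrates. Of all genes, 23.9% were higher and 24.1% lower in KP4, and 34.4% and 29.7% in MiaPaca2, which is the background of each step. Among the 8 fusion genes 6 were higher and 0 lower in each line, with medians of 0.24 in KP4 and 0.60 in MiaPaca2. The KP4 calls of VAMP8, STX17 and RUBCN and the MiaPaca2 call of VAMP8 were lost in fits that left out 1 library, as given below. Among the 16 initiation genes 7 were higher and 2 lower in KP4 (median 0.14), and 10 higher and 3 lower in MiaPaca2 (median 0.20). The 10 conjugation enzymes and proteases gave 0 higher and 3 lower in KP4, and 4 higher and 3 lower in MiaPaca2, with medians of 0.004 and 0.045. The 4 ATG8 genes gave 2 higher in KP4 and 3 in MiaPaca2 with 0 lower in either, and medians of 0.29 and 0.75. Each member's log2(CPM + 0.1) was taken relative to its mean over all 12 libraries, and the median over the fusion genes lay between −0.14 and −0.08 in the KP4 DMSO libraries and between 0.07 and 0.14 in KP4 trametinib. For the conjugation genes the KP4 DMSO libraries lay between −0.01 and 0.06 and the KP4 trametinib libraries between −0.01 and 0.10, and these ranges overlapped. In MiaPaca2 no step overlapped: the fusion genes went from between −0.34 and −0.28 in DMSO to between 0.22 and 0.27 in trametinib, the conjugation genes from between −0.16 and −0.13 to between 0.07 and 0.17, and the initiation genes from between −0.13 and −0.08 to between 0.05 and 0.12.

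**Figure D1:**
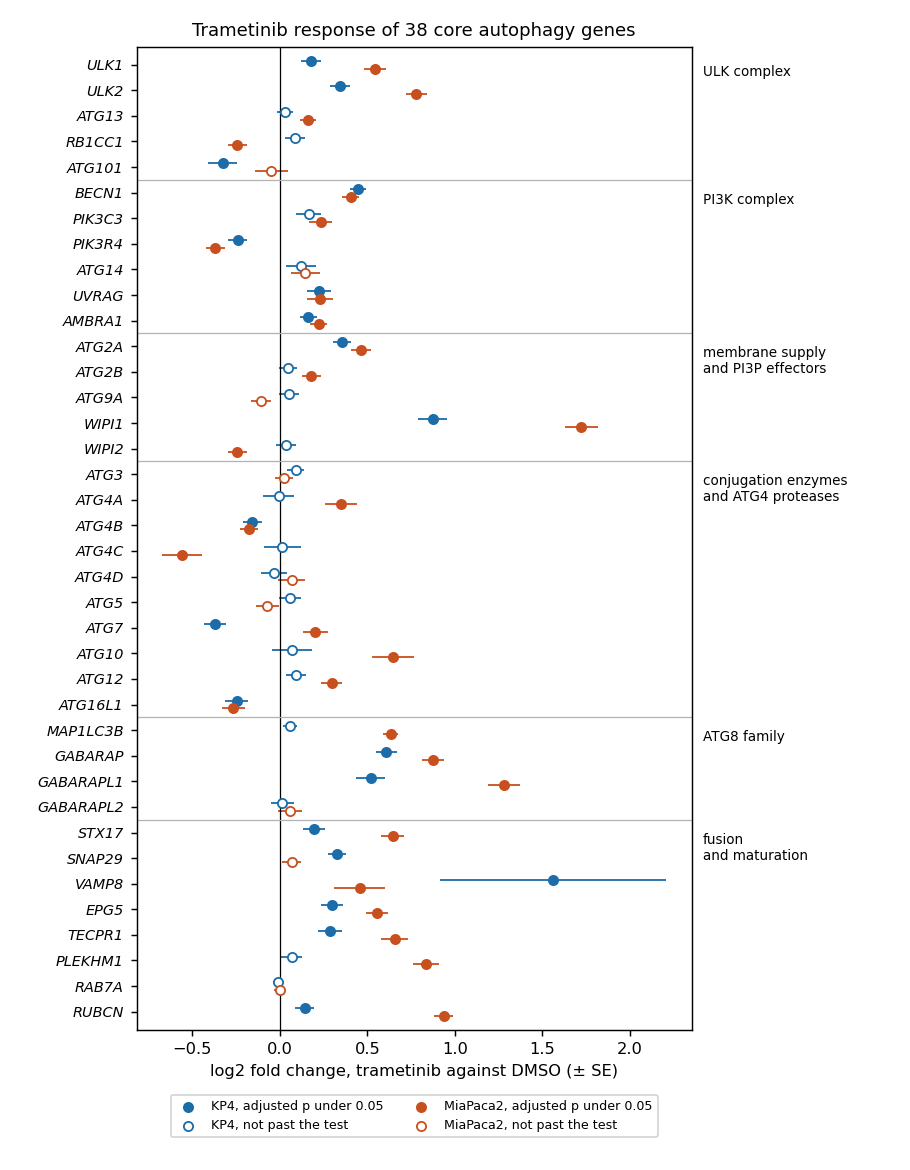
Log2 fold change (x axis) of each of the 38 members (y axis, grouped by step) after trametinib against DMSO, KP4 in blue and MiaPaca2 in orange, with the standard error as a bar and a filled point where the edgeR test was passed. WIPI1 has the largest change in MiaPaca2 at 1.72, the 8 fusion genes have no filled point below 0, and VAMP8 in KP4 has the widest bar, from counts of 2 to 19.

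Across the lines, 14 members rose in both (18.9% of all genes did), and 3 fell in both (16.9% of all genes). The 14 were ULK1, ULK2, BECN1, UVRAG, AMBRA1, ATG2A, WIPI1, GABARAP, GABARAPL1, STX17, VAMP8, EPG5, TECPR1 and RUBCN, and the 3 were PIK3R4, ATG4B and ATG16L1. As given below, the KP4 calls of ULK1, UVRAG, AMBRA1, STX17, VAMP8, RUBCN and ATG4B were lost in at least 1 fit without 1 library. So was the MiaPaca2 call of VAMP8, and that of UVRAG was lost with only the MiaPaca2 libraries fitted. ATG7 fell in KP4 and rose in MiaPaca2, where its call was lost in some settings. Another 11 were called in MiaPaca2 and not in KP4 (25.4% of all genes were), 2 (ATG101 and SNAP29) in KP4 and not in MiaPaca2 (9.45%), and 7 (ATG14, ATG9A, ATG3, ATG4D, ATG5, GABARAPL2 and RAB7A) in neither line (26.5%). The responses themselves differed between the lines for 18 members, or 47.4%, where 35.7% of all genes did. For 14 of the 18 the MiaPaca2 response was the more positive (19.7% of all genes) and for 4 the KP4 response (16.0%). The direction of this background depends on the scaling, since the 2 shares of all genes were 17.3% and 18.9% with RLE scaling. In DESeq2 they were 17.6% and 19.1%. In both of these settings ATG4A, GABARAP and EPG5 lost the call of a difference. VAMP8 gained one on the KP4 side in DESeq2 (1.17, DESeq2 adjusted p = 0.0468). The MiaPaca2 side then held 11 members, the fewest over the settings that kept all 12 libraries.

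The promoter windows of 5 members are shown as examples. These include the largest rise (WIPI1) and genes whose responses differed between the lines by at least 0.5 in size (WIPI1, PLEKHM1 and ATG4C). A fusion tether that rose in both lines (TECPR1) and a fusion SNARE called higher only in KP4 (SNAP29) are also shown. RUBCN, ATG10, ATG7, MAP1LC3B and GABARAPL1 differed by at least 0.5 in size as well and are not shown. The shares of windows with a motif over the members are given below, and the printed examples do not stand for them. The windows are from RefSeq, GRCh38.p14, trimmed to the longest stretch without a GENCODE 29 exon in the 250 bases before the start. All are written 5′ to 3′ on the strand of the gene. Capitals mark a match to CCGGAAG, the core of an ETS factor site, on either strand, or to TCACGTG, an E-box with the flank found in lysosomal and autophagy promoters, on either strand; TCACGTG contains the plain E-box CACGTG.
WIPI1 (chr17:68457514-68457746, minus strand): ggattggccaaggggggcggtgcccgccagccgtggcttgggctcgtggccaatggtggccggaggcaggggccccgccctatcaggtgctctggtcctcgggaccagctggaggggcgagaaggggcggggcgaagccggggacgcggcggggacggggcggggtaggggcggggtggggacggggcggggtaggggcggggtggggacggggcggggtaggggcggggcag
PLEKHM1 (chr17:45490750-45490971, minus strand): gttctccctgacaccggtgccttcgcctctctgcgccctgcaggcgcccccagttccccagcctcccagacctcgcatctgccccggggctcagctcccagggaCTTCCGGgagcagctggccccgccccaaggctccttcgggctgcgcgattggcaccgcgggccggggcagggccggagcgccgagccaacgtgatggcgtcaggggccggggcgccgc
ATG4C (chr1:62783882-62784131, plus strand): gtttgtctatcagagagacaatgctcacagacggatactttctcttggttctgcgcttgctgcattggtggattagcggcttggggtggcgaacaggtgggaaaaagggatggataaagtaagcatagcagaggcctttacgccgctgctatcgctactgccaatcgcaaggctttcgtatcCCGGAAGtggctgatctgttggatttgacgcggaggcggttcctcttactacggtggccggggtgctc
TECPR1 (chr7:98252252-98252378, minus strand): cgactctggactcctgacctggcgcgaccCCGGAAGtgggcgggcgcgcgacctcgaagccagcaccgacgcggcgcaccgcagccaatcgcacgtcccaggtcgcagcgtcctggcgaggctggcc
SNAP29 (chr22:20858813-20858982, plus strand): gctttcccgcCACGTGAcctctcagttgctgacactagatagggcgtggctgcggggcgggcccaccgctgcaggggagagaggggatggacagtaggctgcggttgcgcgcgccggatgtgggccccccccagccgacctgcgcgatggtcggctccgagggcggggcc
The printed ETS letters start 146 bases before the RefSeq start in PLEKHM1, 117 in TECPR1 and 68 in ATG4C, and the E-box letters lie 184 bases before it in SNAP29. TECPR1 has another ETS match on the opposite strand just after the start, outside the printed stretch. WIPI1 holds neither motif in its window. Windows of 300 bases, from 250 before to 50 after the start, were found in RefSeq for 33 of the 38 members, 37 windows in all; RB1CC1, UVRAG, ATG4D, STX17 and EPG5 had no entry. CCGGAAG was present in 12 of the 37 (32.4%), those of ATG101, BECN1, PIK3C3, ATG3, ATG4C, ATG5, ATG7, ATG16L1, GABARAPL2, TECPR1, PLEKHM1 and RUBCN. It was present in 10.3% of 35116 windows of all genes and in 16.1% of 16784 windows of the genes tested. TCACGTG and CACGTG were present in the windows of ATG14, ATG3 and SNAP29 (8.1%). TCACGTG was in 3.71% of all windows and 5.2% of those of tested genes, and CACGTG in 7.26% and 9.12%, so that the members' share of the plain E-box lay between these backgrounds. TGTTTAC, a FOXO site, was present in 0 of the 37, in 3.42% of all windows and in 2.63% of those of tested genes. The 12 members with the ETS letters include genes that rose in both lines (BECN1, TECPR1, RUBCN), that fell in both (ATG16L1) and that passed in neither (ATG3, ATG5, GABARAPL2).

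The first complex of initiation is the ULK complex, in which ULK1 or ULK2 is the kinase, ATG13 the adaptor, RB1CC1 (FIP200) the scaffold and ATG101 the stabiliser of ATG13. Its 2 kinase genes rose in both lines, and the other subunits rose, fell or were not called depending on the line. ULK2 (ENSG00000083290, chromosome 17, 19770829 to 19867936, GRCh38) stood at 68.6, 71.5 and 69.1 CPM in KP4 DMSO and 91.0, 87.5 and 87.1 CPM in trametinib, and at 48.5, 57.2 and 49.7 CPM in MiaPaca2 DMSO and 83.8, 91.7 and 91.2 CPM in MiaPaca2 trametinib. All treated libraries of a line were above all its controls, and the treated levels of the lines overlapped. The log2 fold change of ULK2 was 0.34 ± 0.06 (SE; edgeR adjusted p = 1.11e-05) in KP4 and 0.78 ± 0.06 (edgeR adjusted p = 1.08e-11) in MiaPaca2, a difference of −0.43 ± 0.08 (KP4 minus MiaPaca2, edgeR adjusted p = 1.29e-04). ULK1 (ENSG00000177169, chromosome 12, 131894651 to 131923167) was at 100.8, 98.5 and 103 CPM in KP4 DMSO and 117, 112 and 112 CPM in trametinib. In MiaPaca2 it went from 59.6, 73.9 and 72.0 to 107, 95.9 and 96.3 CPM. The control and treated libraries did not overlap in either line, and the rise was the larger in MiaPaca2, with 0.18 ± 0.06 (edgeR adjusted p = 0.0149) in KP4, 0.54 ± 0.06 (edgeR adjusted p = 4.35e-08) in MiaPaca2 and a difference of −0.37 ± 0.09 (edgeR adjusted p = 1.68e-03). The KP4 call of ULK1 was lost without KP4 DMSO replicate 2 (0.16, edgeR adjusted p = 0.0655).

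Of the 3 partners of the kinases, ATG101 fell in KP4, and in MiaPaca2 RB1CC1 fell and ATG13 rose. ATG13 was at 0.03 in KP4 and rose by 0.16 on the log2 scale in MiaPaca2. RB1CC1 was at 0.09 in KP4 and fell by 0.24 in MiaPaca2, and its responses differed by 0.33 ± 0.08 (edgeR adjusted p = 1.66e-03). With only the KP4 libraries fitted, RB1CC1 was called higher there (0.10, edgeR adjusted p = 0.0336), and with only those of MiaPaca2 the ATG13 call was lost (0.13, edgeR adjusted p = 0.0690). ATG101 fell from 72.9 ± 0.981 to 58.1 ± 2.08 CPM (mean ± SD, n = 3) in KP4, a log2 fold change of −0.33 ± 0.08, and was at 44.3 ± 8.11 and 42.7 ± 3.28 CPM in MiaPaca2. Its difference of responses, −0.28 (edgeR adjusted p = 0.0921), became −0.43 (edgeR adjusted p = 5.72e-05) without MiaPaca2 DMSO replicate 2, which at 53.4 CPM lay above the other 2 controls at 37.8 and 41.7 CPM.

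The PI3K complex makes PI3P at the growing membrane. PIK3C3 (VPS34) is the lipid kinase, PIK3R4 (VPS15) its regulatory subunit, BECN1 (Beclin 1) the core subunit, ATG14 and UVRAG alternative subunits that direct the complex to autophagosome formation or to endosomes, and AMBRA1 a BECN1 partner. BECN1, UVRAG and AMBRA1 rose in both lines and PIK3R4 fell in both. For 0 of these 6 genes did the responses of the lines differ by the test, with differences from −0.07 to 0.13, which does not show that they were equal. BECN1 (ENSG00000126581, chromosome 17, 42810134 to 42833350) rose from 75.6 ± 1.83 to 103 ± 2.07 CPM in KP4 and from 73.5 ± 2.93 to 97.2 ± 1.33 CPM in MiaPaca2, log2 fold changes of 0.45 ± 0.05 (edgeR adjusted p = 8.60e-09) and 0.40 ± 0.05 (edgeR adjusted p = 3.95e-08). AMBRA1 rose by 0.16 and 0.22 and UVRAG by 0.22 and 0.23 in KP4 and MiaPaca2. The KP4 calls of both were lost without 1 library, AMBRA1 without KP4 DMSO replicate 1 (0.14, edgeR adjusted p = 0.0544) and UVRAG without KP4 DMSO replicate 3 (0.17, edgeR adjusted p = 0.0794). PIK3R4 fell in both, from 57.7 ± 0.968 to 48.9 ± 1.15 CPM in KP4 (−0.24 ± 0.06) and from 81.7 ± 4.67 to 63.3 ± 3.29 CPM in MiaPaca2 (−0.37 ± 0.05). The kinase gene PIK3C3 rose by 0.23 in MiaPaca2 (edgeR adjusted p = 3.59e-03) and was at 0.17 in KP4 (edgeR adjusted p = 0.0554), where the call was made in 8 alternative settings, among them each that left out 1 MiaPaca2 DMSO library (0.16 in each, edgeR adjusted p from 0.0433 to 0.0452). ATG14 passed the test in neither line (0.12 and 0.15), though it did in MiaPaca2 without MiaPaca2 DMSO replicate 1 (0.27, edgeR adjusted p = 3.79e-03). The catalytic unit and its partner PIK3R4 thus stood on opposite sides of 0 in MiaPaca2, and BECN1 shares exonic bases with PSME3 on the other strand, a gene that fell in both lines (−0.16 and −0.48).

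Membrane supply and PI3P reading gave the largest single response, that of WIPI1 in MiaPaca2. WIPI1 encodes a PI3P-binding propeller protein recruited to the nascent autophagosome. WIPI1 (ENSG00000070540, chromosome 17, 68420948 to 68457513) stood at 14.8, 14.7 and 15.1 CPM in KP4 DMSO and 27.7, 27.7 and 26.2 CPM in trametinib. In MiaPaca2 it rose from 6.89, 9.29 and 8.02 CPM to 27.7, 25.8 and 26.1 CPM. The controls of the lines were apart, KP4 above MiaPaca2, while the treated libraries of the lines overlapped. The log2 fold change was 0.87 ± 0.08 (edgeR adjusted p = 1.27e-09) in KP4 and 1.72 ± 0.10 (edgeR adjusted p = 1.99e-14) in MiaPaca2, and the difference of −0.85 ± 0.13 (edgeR adjusted p = 8.62e-06) was the largest in size among the 18 that passed. WIPI1 shares 828 exonic bases with ARSG on the opposite strand, which rose by 0.73 and 0.52 but reached 4.25 and 3.93 CPM in the treated groups. Its paralog WIPI2, which recruits ATG16L1 to the membrane, was at 0.04 in KP4 and fell by 0.24 in MiaPaca2, from 126 ± 9.28 to 107 ± 5.07 CPM, with responses that differed by 0.28 ± 0.08 (edgeR adjusted p = 7.46e-03). ATG2A, a lipid transfer protein gene, rose by 0.35 ± 0.05 in KP4 and 0.46 ± 0.06 in MiaPaca2. Its paralog ATG2B was at 0.05 in KP4 and rose by 0.18 in MiaPaca2, a call lost without MiaPaca2 trametinib replicate 1 (0.14, edgeR adjusted p = 0.0556) or with only the MiaPaca2 libraries fitted (0.15, edgeR adjusted p = 0.0641). ATG9A, the scramblase of the vesicles that seed the membrane, passed in neither line (0.05 and −0.11). In MiaPaca2 it was called lower without MiaPaca2 DMSO replicate 2 (−0.14, edgeR adjusted p = 0.0418) or KP4 trametinib replicate 1 (−0.15, edgeR adjusted p = 0.0374). The same call was made with RLE scaling (−0.14, edgeR adjusted p = 0.0444) and in DESeq2 (−0.14, DESeq2 adjusted p = 0.0480). ATG9A shares 1833 of its 4.724 kb of exon with a gene on the same strand that was not tested.

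In conjugation, ATG7 is the E1-like enzyme, ATG3 and ATG10 the E2-like enzymes, the ATG12-ATG5-ATG16L1 complex acts as the E3, and the ATG4 proteases prime ATG8 proteins and release them again. No enzyme gene passed the test upward in KP4, except ATG3 when only the KP4 libraries were fitted (0.10, edgeR adjusted p = 0.0187). ATG7, ATG10 and ATG4C responded differently in the lines. ATG7 (ENSG00000197548, chromosome 3, 11272309 to 11557665) stood at 40.8, 39.0 and 37.2 CPM in KP4 DMSO and 29.2, 30.9 and 30.5 CPM in trametinib. In MiaPaca2 it was at 23.6, 26.1 and 24.7 CPM in DMSO and 28.5, 28.8 and 28.4 CPM in trametinib. Controls and treated libraries were apart in each line, in opposite directions, with −0.37 ± 0.06 (edgeR adjusted p = 2.30e-05) in KP4, 0.20 ± 0.07 (edgeR adjusted p = 0.0144) in MiaPaca2 and a difference of −0.57 ± 0.09 (edgeR adjusted p = 2.90e-05). The MiaPaca2 rise lost its call without MiaPaca2 DMSO replicate 1 (0.16, edgeR adjusted p = 0.0593), without KP4 trametinib replicate 1 (0.16, edgeR adjusted p = 0.0537), with no filter and with only the MiaPaca2 libraries. ATG7 shares 1596 exonic bases with VGLL4 on the opposite strand, a gene that rose by 0.44 and 0.58, and reads from these bases cannot be told apart without strand.

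ATG10, which joins ATG12 to ATG5, rose in MiaPaca2. ATG10 (ENSG00000152348, chromosome 5, 81972025 to 82276857) was at 8.17, 8.73 and 9.48 CPM in MiaPaca2 DMSO and 12.4, 12.9 and 15.8 CPM in MiaPaca2 trametinib, and at 10.2, 10.7 and 9.74 CPM in KP4 DMSO and 9.42, 10.8 and 11.9 CPM in trametinib. The MiaPaca2 groups were apart and the KP4 groups overlapped. Its log2 fold change was 0.65 ± 0.12 (edgeR adjusted p = 3.54e-05) in MiaPaca2 and 0.07 ± 0.11 in KP4, a difference of −0.58 ± 0.17 (edgeR adjusted p = 7.33e-03) that became −0.43 (edgeR adjusted p = 0.0571) without KP4 trametinib replicate 1. RPS23, a ribosomal protein gene that shares 374 exonic bases with ATG10 on the other strand, stood at 725 CPM in MiaPaca2 DMSO and fell by 0.46 there. ATG4C (ENSG00000125703, chromosome 1, 62784135 to 62865513) fell in MiaPaca2, from 13.5, 12.3 and 12.3 CPM to 8.20, 8.54 and 9.06 CPM. In KP4 it was at 12.6, 9.48 and 10.6 CPM in DMSO and 11.1, 10.5 and 11.4 CPM in trametinib, which overlapped. The changes were −0.56 ± 0.11 (edgeR adjusted p = 1.27e-04) and 0.01 ± 0.11, with a difference of 0.57 ± 0.16 (edgeR adjusted p = 4.99e-03).

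The other ATG4 genes went separate ways. ATG4A rose by 0.35 in MiaPaca2 and was at −0.01 in KP4. Its difference of −0.36 ± 0.13 (edgeR adjusted p = 0.0330) lost its call in 8 settings, among them the omission of any 1 of KP4 DMSO replicates 1 and 2, KP4 trametinib replicates 1 and 2 and MiaPaca2 trametinib replicate 2 (−0.26 to −0.34, edgeR adjusted p from 0.0642 to 0.169). ATG4B fell by 0.16 in KP4 and 0.18 in MiaPaca2, and the KP4 call was lost without KP4 DMSO replicate 1, KP4 trametinib replicate 1 or KP4 trametinib replicate 3 (−0.14 to −0.15, edgeR adjusted p from 0.0587 to 0.0769). ATG4D passed in neither line (−0.03 and 0.07). Of the E3 genes, ATG16L1 fell by 0.25 and 0.27 in KP4 and MiaPaca2, from 46.1 ± 1.39 to 38.9 ± 1.59 CPM and from 50.6 ± 3.72 to 42.0 ± 3.02 CPM. ATG12 rose by 0.30 in MiaPaca2 (edgeR adjusted p = 9.10e-05) and was at 0.09 in KP4. ATG5 (0.06 and −0.07) and the E2 gene ATG3 (0.09 and 0.02) passed in neither line, although for ATG3 all treated KP4 libraries were above all controls. The difference of responses of ATG12, −0.20 (edgeR adjusted p = 0.0533), passed without KP4 DMSO replicate 3 (−0.24, edgeR adjusted p = 0.0379) or MiaPaca2 DMSO replicates 1 or 2 (−0.22 and −0.20, edgeR adjusted p = 0.0354 and 0.0482).

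The ATG8 proteins coat the autophagosome and bind cargo receptors and the fusion machinery. GABARAPL1 and GABARAP rose in both lines, MAP1LC3B (LC3B) in MiaPaca2, and GABARAPL2 in neither. GABARAPL1 (ENSG00000139112, chromosome 12, 10212458 to 10223130) stood at 98.9, 99.9 and 100.1 CPM in KP4 DMSO and 141, 139 and 148 CPM in trametinib. In MiaPaca2 it went from 40.6, 59.0 and 43.8 CPM to 115, 116 and 117 CPM, with DMSO replicate 2 the highest control. In each line all treated libraries were above all controls. The log2 fold change was 0.52 ± 0.08 (edgeR adjusted p = 1.13e-04) in KP4 and 1.28 ± 0.09 (edgeR adjusted p = 1.25e-08) in MiaPaca2, with a difference of −0.76 ± 0.12 (edgeR adjusted p = 2.45e-04). GABARAP (ENSG00000170296, chromosome 17, 7240014 to 7242770) rose from 40.1, 40.9 and 37.4 CPM to 59.4, 59.7 and 61.2 CPM in KP4, and from 28.6, 31.9 and 30.8 CPM to 54.8, 52.7 and 59.6 CPM in MiaPaca2. The groups did not overlap in either line, and the log2 fold changes were 0.61 ± 0.06 (edgeR adjusted p = 4.05e-09) and 0.88 ± 0.06 (edgeR adjusted p = 6.73e-12). Their difference of −0.27 ± 0.09 (edgeR adjusted p = 0.0195) lost its call without KP4 DMSO replicate 2, KP4 trametinib replicate 1 or MiaPaca2 trametinib replicate 3 (−0.20 to −0.24, edgeR adjusted p from 0.0609 to 0.133). It was also lost with RLE scaling (−0.22, edgeR adjusted p = 0.0516) and in DESeq2 (−0.22, DESeq2 adjusted p = 0.0538). Of its 2.266 kb of exon, GABARAP shares 691 bases with a gene on the same strand and 571 with another on the opposite strand. Neither of these genes was tested.

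MAP1LC3B is the ATG8 gene whose protein is the usual marker of autophagosomes. MAP1LC3B (ENSG00000140941, chromosome 16, 87383995 to 87404779) stood at 136, 138 and 135 CPM in KP4 DMSO and 146, 139 and 142 CPM in trametinib, and went from 93.8, 101.04 and 95.4 CPM to 148, 151 and 150.1 CPM in MiaPaca2. The MiaPaca2 groups were apart, and the KP4 libraries were near each other although the treated ones were the higher. The change was 0.06 ± 0.04 (edgeR adjusted p = 0.270; 0.0488 with only the KP4 libraries fitted) in KP4 and 0.63 ± 0.04 (edgeR adjusted p = 1.44e-12) in MiaPaca2, and the difference was −0.57 ± 0.06 (edgeR adjusted p = 2.93e-08). GABARAPL2 was at 47.2 ± 0.532 and 47.7 ± 0.437 CPM in KP4 and 49.4 ± 4.47 and 51.6 ± 4.78 CPM in MiaPaca2. The ATG8 genes are related in sequence and MAP1LC3B has a named pseudogene and the near-identical copy MAP1LC3B2, so their split depends on how shared reads were counted, which is not given in the sources used here.

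**Figure D2:**
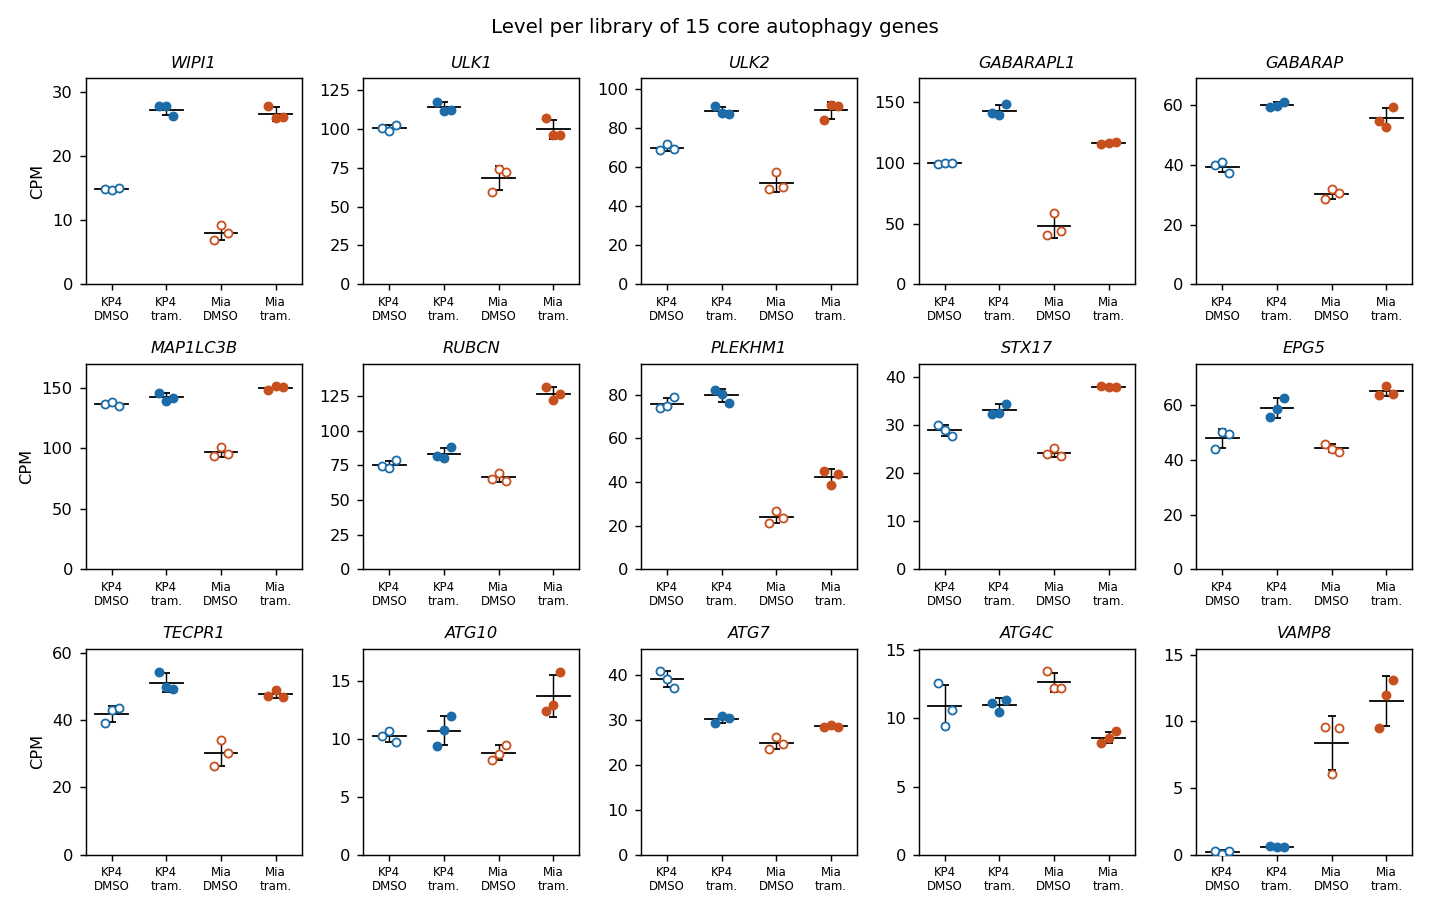
Level in CPM (y axis, from 0) of the 15 members with a change or a difference of responses of at least 0.5 in size, in each of the 12 libraries (points) with the group mean and SD (lines), KP4 in blue, MiaPaca2 (Mia) in orange, DMSO open and trametinib (tram.) filled. WIPI1, ULK2 and MAP1LC3B start lower in MiaPaca2 DMSO than in KP4 DMSO and reach levels near those of KP4 under trametinib, whereas VAMP8 stays below 1 CPM in KP4.

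In fusion, STX17, SNAP29 and VAMP8 form the SNARE bundle between autophagosome and lysosome, EPG5, TECPR1 and PLEKHM1 are tethers, RAB7A is the late endosomal GTPase, and RUBCN (Rubicon) is an inhibitor of the UVRAG form of the PI3K complex. Tethers and STX17 rose in MiaPaca2, and so did the inhibitor. RUBCN (ENSG00000145016, chromosome 3, 197671393 to 197749727) stood at 74.5, 73.3 and 78.5 CPM in KP4 DMSO and 81.5, 80.0 and 88.3 CPM in trametinib, and rose from 65.2, 69.8 and 63.8 CPM to 131, 122 and 126 CPM in MiaPaca2. The treated libraries of MiaPaca2 were above all others. The log2 fold change was 0.94 ± 0.05 (edgeR adjusted p = 2.75e-14) in MiaPaca2 and 0.14 ± 0.05 (edgeR adjusted p = 0.0276) in KP4, a difference of −0.79 ± 0.07 (edgeR adjusted p = 4.41e-09). The KP4 call was lost without KP4 DMSO replicates 1 or 2 or KP4 trametinib replicate 3 (0.10 to 0.13, edgeR adjusted p from 0.0893 to 0.193). RUBCN shares 118 exonic bases with FYTTD1 on the other strand, which rose by 0.28 and 0.70.

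PLEKHM1 (ENSG00000225190, chromosome 17, 45435900 to 45490749), an adaptor of RAB7A, the HOPS complex and ATG8 proteins, was the member with the widest gap between lines at this step apart from VAMP8. It stood at 74.2, 74.9 and 78.9 CPM in KP4 DMSO and 82.1, 80.6 and 76.4 CPM in trametinib, and rose from 21.5, 26.8 and 23.5 CPM to 45.1, 38.7 and 43.8 CPM in MiaPaca2. The KP4 groups overlapped, and every MiaPaca2 library was below every KP4 library. Its change was 0.83 ± 0.08 (edgeR adjusted p = 4.71e-10) in MiaPaca2 and 0.07 ± 0.06 in KP4, a difference of −0.77 ± 0.10 (edgeR adjusted p = 7.26e-07). A related copy, PLEKHM1P1, was at 6.37 CPM in MiaPaca2 DMSO and 8.38 CPM in MiaPaca2 trametinib. TECPR1 (ENSG00000205356, chromosome 7, 98214624 to 98252251), which binds ATG12-ATG5 and PI3P, went from 39.2, 42.8 and 43.4 CPM to 54.2, 49.8 and 49.1 CPM in KP4 and from 26.4, 34.1 and 30.0 CPM to 47.1, 48.9 and 46.8 CPM in MiaPaca2. Controls and treated libraries were apart in both lines, with rises of 0.29 ± 0.07 (edgeR adjusted p = 1.18e-03) and 0.66 ± 0.08 (edgeR adjusted p = 2.95e-08) and a difference of −0.37 ± 0.10 (edgeR adjusted p = 6.28e-03). EPG5 (ENSG00000152223, chromosome 18, 45847609 to 45967339) went from 43.8, 50.1 and 49.5 CPM to 55.5, 58.4 and 62.6 CPM in KP4 and from 45.9, 43.9 and 42.9 CPM to 63.8, 67.0 and 64.2 CPM in MiaPaca2. Both lines rose without overlap, by 0.30 ± 0.06 (edgeR adjusted p = 1.91e-04) and 0.55 ± 0.06 (edgeR adjusted p = 1.80e-08). The EPG5 difference of −0.26 ± 0.09 (edgeR adjusted p = 0.0225) became −0.15 (edgeR adjusted p = 0.225) without KP4 trametinib replicate 1, and was also lost without KP4 DMSO replicates 2 or 3 or MiaPaca2 trametinib replicate 2 (−0.22 to −0.23, edgeR adjusted p from 0.0590 to 0.0762). Without KP4 trametinib replicate 1 the median difference of all genes moved as well, from −0.052 to 0.010. RLE scaling (−0.21, edgeR adjusted p = 0.0630) and DESeq2 (−0.21, DESeq2 adjusted p = 0.0711) lost the EPG5 call too.

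The autophagosomal SNARE gene STX17 (ENSG00000136874, chromosome 9, 99906633 to 99970341) stood at 30.0, 29.02 and 27.8 CPM in KP4 DMSO and 32.3, 32.5 and 34.5 CPM in trametinib. In MiaPaca2 it rose from 24.0, 25.3 and 23.6 CPM to 38.2, 37.9 and 37.9 CPM. The line with the lower control level thus had the higher treated level, and no groups overlapped. The log2 fold changes were 0.19 ± 0.06 (edgeR adjusted p = 0.0129) in KP4 and 0.65 ± 0.07 (edgeR adjusted p = 3.66e-09) in MiaPaca2, with a difference of −0.45 ± 0.09 (edgeR adjusted p = 3.35e-04); the KP4 call was lost without KP4 DMSO replicate 3 or KP4 trametinib replicate 3 (0.16 in each, edgeR adjusted p = 0.0776 and 0.0729). SNAP29, the SNARE that joins the bundle from the cytosol, rose by 0.33 ± 0.05 (edgeR adjusted p = 1.13e-05) in KP4 and was at 0.07 in MiaPaca2, with responses that differed by 0.26 ± 0.08 (edgeR adjusted p = 8.06e-03). The lysosomal SNARE gene VAMP8 (ENSG00000118640, chromosome 2, 85561562 to 85582031) had 6, 2 and 8 counts in KP4 DMSO and 19, 15 and 16 counts in KP4 trametinib, levels of 0.0777 to 0.286 and 0.560 to 0.668 CPM, and the 2 counts of KP4 DMSO replicate 2 lie under the floor of 3 counts (0.117 CPM). In MiaPaca2 it had 233, 142 and 214 counts in DMSO and 234, 242 and 322 in trametinib, or 9.61, 6.05 and 9.48 CPM and 9.50, 11.9 and 13.1 CPM, which overlapped. The test called both rises, 1.56 ± 0.65 in KP4 (edgeR adjusted p = 0.0487) and 0.46 ± 0.15 in MiaPaca2 (edgeR adjusted p = 8.11e-03). The KP4 call was lost without any 1 of the 6 KP4 libraries (1.19 to 1.92, edgeR adjusted p from 0.0596 to 0.177) or without MiaPaca2 trametinib replicate 2 (1.56, edgeR adjusted p = 0.0595). The MiaPaca2 call was lost without MiaPaca2 DMSO replicate 2 (0.27, edgeR adjusted p = 0.0704) or MiaPaca2 trametinib replicate 3 (0.34, edgeR adjusted p = 0.0747). RAB7A was at 582 ± 11.9 and 579 ± 2.50 CPM in KP4 and 595 ± 8.66 and 594 ± 4.71 CPM in MiaPaca2, and its log2 fold changes were −0.01 ± 0.03 and −0.00 ± 0.03.

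Levels of different genes were compared as CPM per kilobase of exon. RAB7A was the most abundant member at 216 CPM per kb over all libraries. The ATG8 genes GABARAPL1, MAP1LC3B and GABARAP followed, at 24.9, 24.7 and 20.5 CPM per kb, and the lowest were ATG10 at 1.99 and the kinase gene PIK3C3 at 1.95 CPM per kb. Exon lengths are those of all annotated exons of a gene, so a gene with long rare exons is set too low on this scale.

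Where a step is carried by paralogs, the share of each in its family (CPM per kb, within a library) shows unequal change regardless of the scaling between libraries. WIPI1 made up 31.7% ± 1.29 (SD, n = 3) of the WIPI1 and WIPI2 total in KP4 DMSO, against 45.3% ± 1.05 under trametinib, and 14.5% ± 2.69 in MiaPaca2 DMSO, against 39.6% ± 2.09. The shares of the treated libraries were above those of all controls in each line, by 13.5 and 25.2 percentage points. The share of ATG2A against ATG2B was 4.20 points higher after trametinib in KP4 and 4.06 points higher in MiaPaca2, again without overlap. The share of ULK1 against ULK2 differed by −2.65 points in KP4 without overlap and by −3.90 points in MiaPaca2 with overlap.

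Within the 4 ATG8 genes, the shares of GABARAP and GABARAPL1 were higher after trametinib in both lines and those of MAP1LC3B and GABARAPL2 lower. GABARAPL1 went from 29.4% to 33.6% of the family in KP4 and from 19.5% to 28.9% in MiaPaca2, and GABARAP from 21.0% to 25.5% and from 22.5% to 25.02%. MAP1LC3B went from 30.9% to 25.7% in KP4 and from 30.5% to 28.7% in MiaPaca2, although its own level rose in MiaPaca2. GABARAPL2 went from 18.7% to 15.1% and from 27.4% to 17.3%. No control library overlapped with a treated library of its line in any of these 8 comparisons. In the ATG4 family the shares of KP4 overlapped for all 4 genes, while in MiaPaca2 those of ATG4A, ATG4B and ATG4C differed by 3.41, −3.24 and −3.39 points without overlap. In exact two-sided permutation tests 3 libraries against 3 cannot go below p = 0.10, and over the 44 share comparisons the smallest adjusted p was 0.138, so no share difference passed.

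**Figure D3:**
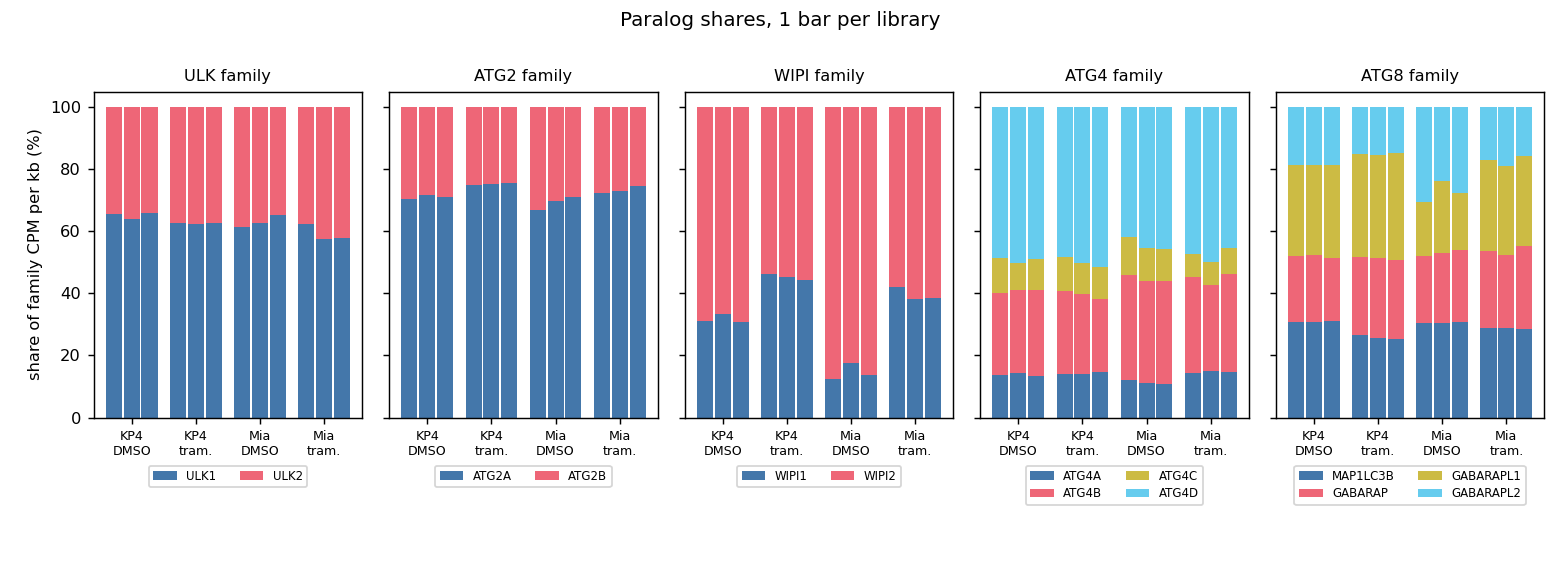
Share in percent (y axis) of each paralog in the CPM per kb of its family, with 1 stacked bar per library, for the ULK, ATG2, WIPI, ATG4 and ATG8 families in the 4 groups (Mia, MiaPaca2; tram., trametinib). The WIPI1 part averages 14.5% in DMSO and 39.6% in trametinib in MiaPaca2, and 31.7% and 45.3% in KP4, and the GABARAPL2 part is smaller in the treated libraries of both lines.

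The lines were also compared with each other in each medium. In DMSO, 18 of 38 members were higher in KP4 and 10 higher in MiaPaca2, or 73.7%, where 63.2% of all genes were called (32.0% and 31.2%). In trametinib, 9 were higher in KP4 and 11 in MiaPaca2, or 52.6%, where 56.3% of all genes were called (26.5% and 29.8%). The 3 libraries of KP4 were all above those of MiaPaca2 for 20 members in DMSO (34% of all genes) and 12 in trametinib (31.2%), and all below for 11 (32.1%) and 14 (33.2%). These comparisons use the same libraries as the responses and are not independent of them. ULK2, ATG13, RB1CC1, ATG2B, ATG9A, WIPI1, ATG4A, ATG7, MAP1LC3B, GABARAP, SNAP29 and TECPR1 differed between the lines in DMSO and passed no test between them in trametinib (20.2% of all genes did so); for 9 of these 12 genes the responses were tested to differ above, and for ATG13, ATG2B and ATG9A they were not called different. For ULK2 the gap between lines went from 0.43 ± 0.06 (edgeR adjusted p = 6.30e-07) to −0.00 ± 0.06, for WIPI1 from 0.88 ± 0.10 (edgeR adjusted p = 4.30e-08) to 0.03 ± 0.07, and for MAP1LC3B from 0.50 ± 0.04 (edgeR adjusted p = 1.84e-10) to −0.08 ± 0.04. The DMSO calls of ATG13 (0.10) and ATG4A (0.21) were lost in 15 settings each, 9 of which left out 1 library. For ATG13 these were all but MiaPaca2 DMSO replicates 2 and 3 and MiaPaca2 trametinib replicate 3 (0.08 to 0.12), and for ATG4A all but KP4 DMSO replicate 3, KP4 trametinib replicate 3 and MiaPaca2 trametinib replicate 2 (0.19 to 0.24). That of ATG9A (−0.16) was lost without KP4 DMSO replicates 1 or 2 or MiaPaca2 DMSO replicate 3 (−0.13 to −0.15, edgeR adjusted p from 0.0684 to 0.0740).

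Another 16 members differed between the lines in both media, as 43% of all genes did. The PI3K complex kept its pattern: PIK3C3, PIK3R4, ATG14 and AMBRA1 were higher in MiaPaca2 and UVRAG higher in KP4 in DMSO and in trametinib. PIK3R4 was at −0.50 in DMSO and −0.37 in trametinib (KP4 minus MiaPaca2), AMBRA1 at −0.42 and −0.48, and UVRAG at 0.33 and 0.33. The largest gap was that of VAMP8, at −5.34 ± 0.34 in DMSO and −4.23 ± 0.25 in trametinib (edgeR adjusted p = 7.04e-13 and 1.60e-13). Its size is uncertain, since the KP4 libraries held 2 to 8 counts in DMSO and 15 to 19 in trametinib. KP4 DMSO replicate 2, at 2 counts, lies under the floor of 3 counts. PLEKHM1 was higher in KP4 by 1.67 ± 0.07 and 0.90 ± 0.06, ATG101 by 0.72 and 0.44, and GABARAPL1 by 1.059 and 0.30. WIPI2 (−0.58 and −0.30) and ATG4B (−0.38 and −0.36) were higher in MiaPaca2, and ATG3 (0.22 and 0.29), ATG2A (0.34 and 0.23) and ULK1 (0.56 and 0.19) in KP4. STX17 and RUBCN changed sides, STX17 from 0.25 in DMSO to −0.20 in trametinib and RUBCN from 0.19 to −0.61. The STX17 call in trametinib was lost without KP4 trametinib replicate 1 (−0.14, edgeR adjusted p = 0.103).

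ATG4C, ATG5, ATG10 and EPG5 were called between the lines in trametinib and not in DMSO (13.3% of all genes were). ATG4C was at 0.35 in trametinib (edgeR adjusted p = 0.0103) and at −0.22 in DMSO, where it was called without KP4 DMSO replicate 1 (−0.33, edgeR adjusted p = 0.0150) and with RLE scaling (−0.25, edgeR adjusted p = 0.0422). ATG5 was at 0.16 and lost its call without KP4 trametinib replicate 2 or MiaPaca2 trametinib replicates 2 or 3 (0.13 to 0.14, edgeR adjusted p from 0.108 to 0.143). ATG10 was at −0.36 and lost its call without KP4 trametinib replicate 1 (−0.23, edgeR adjusted p = 0.107) or MiaPaca2 trametinib replicate 3 (−0.24, edgeR adjusted p = 0.0976). EPG5 was at 0.11 in DMSO, where it was called without KP4 DMSO replicate 1 (0.17, edgeR adjusted p = 0.0304) and with library size scaling (0.15, edgeR adjusted p = 0.0479). In trametinib it was at −0.14 (edgeR adjusted p = 0.0424) and lost its call in 11 settings, with −0.06 (edgeR adjusted p = 0.461) without KP4 trametinib replicate 1. It was also lost without KP4 DMSO replicates 2 or 3, KP4 trametinib replicate 2 or any 1 of the MiaPaca2 trametinib libraries (−0.12 to −0.16, edgeR adjusted p from 0.0529 to 0.144). The 6 members BECN1, ATG4D, ATG12, ATG16L1, GABARAPL2 and RAB7A passed in neither medium. Of these, ATG16L1 was called in DMSO without KP4 trametinib replicate 1 or MiaPaca2 DMSO replicates 1 or 3 (−0.16 to −0.17, edgeR adjusted p from 0.0373 to 0.0477), and BECN1 in trametinib without KP4 trametinib replicate 1 (0.14, edgeR adjusted p = 0.0364).

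**Figure D4:**
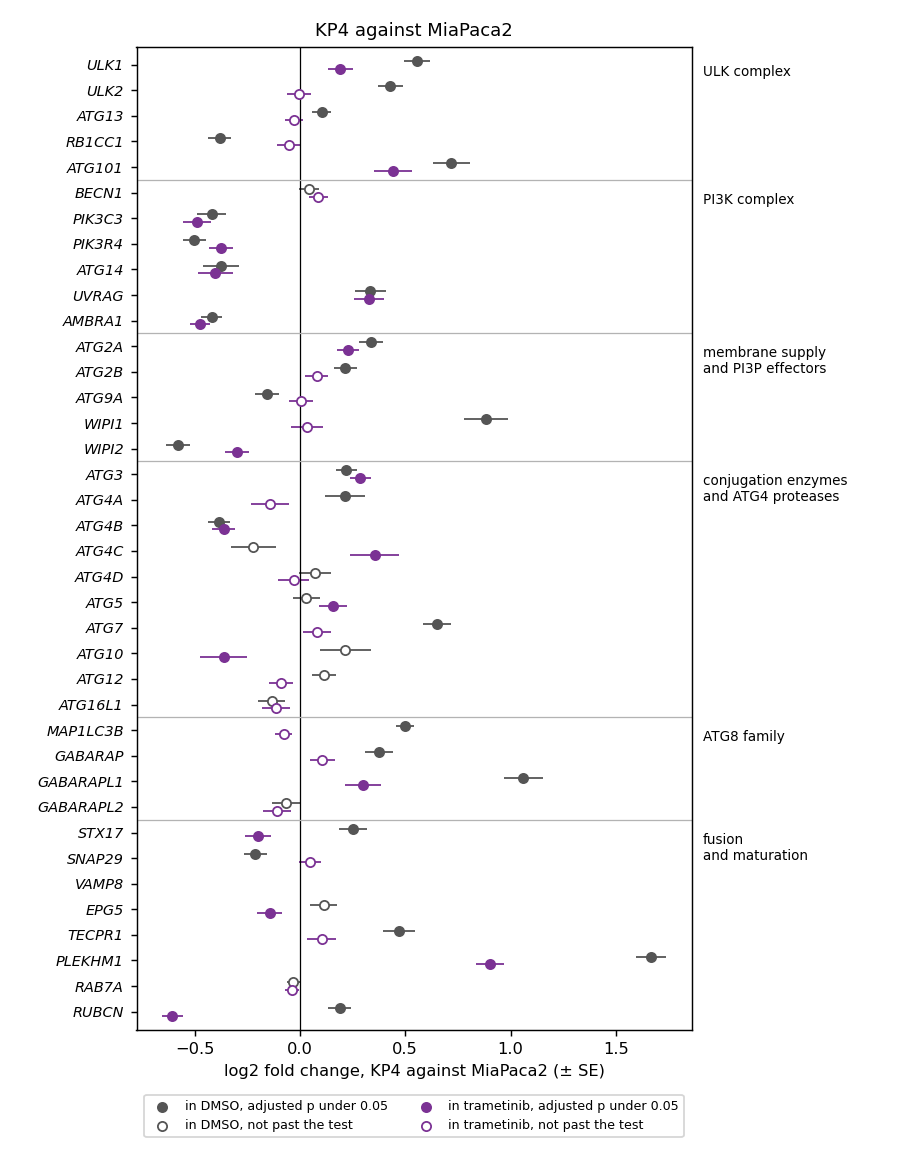
Log2 fold change of KP4 against MiaPaca2 (x axis, above 0 is higher in KP4) for the members (y axis, grouped by step), in DMSO (grey) and in trametinib (purple), with the standard error as a bar and a filled point where the edgeR test was passed. VAMP8, at −5.34 and −4.23, lies outside the axis and is not drawn; the purple points of ULK2, WIPI1 and MAP1LC3B lie near 0 where their grey points are at 0.43, 0.88 and 0.50.

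Other genes of the pathway were taken from a list of 35 that are no members, of which 32 were tested (BECN2, MAP1LC3C and RUBCNL were not). In KP4 13 were higher and 4 lower, with a median of 0.16, where 23.9% of all genes were higher and 24.1% lower. In MiaPaca2 21 were higher and 6 lower, with a median of 0.39, where 34.4% and 29.7% of all genes were. As for the members, the KP4 total is near the 48.1% of all genes called in either direction. Among the 13 tested fusion genes, mainly HOPS subunits, SNAREs and RAB2, 7 were higher and 1 lower in KP4 and 9 higher and 2 lower in MiaPaca2. Among the 16 tested initiation genes the counts were 5 and 3 in KP4, with a median of −0.04, and 9 and 4 in MiaPaca2, with a median of 0.30. The genes with a called change of at least 1 in size were DEPP1, TP53INP1, MAP1LC3A, ZFYVE1, TP53INP2 and MAP1LC3B2. DEPP1, a FOXO-induced autophagy regulator, rose by 2.08 in KP4 and 1.60 in MiaPaca2, and TP53INP1, which binds LC3 and GABARAP proteins, by 1.69 and 2.27.

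MAP1LC3A (LC3A), the paralog of MAP1LC3B outside the member list, went from 8.87, 8.94 and 11.02 CPM to 21.7, 19.9 and 21.8 CPM in KP4 and from 7.92, 7.88 and 11.3 CPM to 38.9, 39.3 and 35.8 CPM in MiaPaca2. Its treated libraries were above all controls, with log2 fold changes of 1.13 ± 0.11 (edgeR adjusted p = 2.49e-09) and 2.08 ± 0.11 (edgeR adjusted p = 3.06e-15), larger than those of MAP1LC3B (0.06 and 0.63) in both lines. ZFYVE1 (DFCP1), a PI3P-binding protein of the omegasome, rose by 0.57 in KP4 and 1.18 in MiaPaca2, and TP53INP2, a nuclear LC3 partner, by 0.47 and 1.01. MAP1LC3B2 rose by 1.05 in MiaPaca2 (edgeR adjusted p = 3.15e-03) to 1.95 ± 0.525 CPM and was at 0.56 in KP4 (edgeR adjusted p = 0.1001). MAP1LC3B2 is a near-identical copy of MAP1LC3B, and reads of the 2 cannot be told apart here.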

How the data were processed

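Raw read counts, as deposited by the authors in 1 table for all 12 libraries, were the starting point. The submitters' processing notes name GRCh38 (hg38), STAR and DESeq2; no source used here gives their versions, the counter, its annotation or its use of strand. Identifiers were matched to GENCODE 29, whose exons gave lengths and overlaps.

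Genes passing filterByExpr (16133) were scaled by TMM and fitted with edgeR 4.0.16 (quasi-likelihood, robust; R 4.3.3, limma 3.58.1, DESeq2 1.42.0), with 1 mean per group over 12 libraries and no covariate. P-values were adjusted over all genes tested, and an adjusted p under 0.05 is a call; the fit was tested on simulated counts. The common dispersion was 0.0029892, a coefficient of variation of 5.47%. At 20293688 to 28018129 counts, 3 counts in a library equal 0.105 to 0.148 CPM; floors cover counting error only. No pair of libraries of a group agreed within sampling noise. Members with a called change or difference of at least 0.5 are described library by library, and other pathway genes are named from 1 upward. The members and lists were chosen with earlier results of these data known. The level of 1 ductal marker on its own is not reported here.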

Additional observations from a re-analysis of the deposited data

Results flagged for a closer look

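For 18 of the 38 members (47.4%) the response to trametinib differed between KP4 and MiaPaca2, where 35.7% of all genes tested did. The test was edgeR's test of the difference itself (adjusted p under 0.05 over all genes tested). Each value is the KP4 response minus the MiaPaca2 response on the log2 scale. In initiation these were ULK1 (−0.37), ULK2 (−0.43), RB1CC1 (0.33), WIPI1 (−0.85) and WIPI2 (0.28). In conjugation they were ATG4A (−0.36), ATG4C (0.57), ATG7 (−0.57), ATG10 (−0.58), MAP1LC3B (−0.57), GABARAP (−0.27) and GABARAPL1 (−0.76). In fusion and maturation they were STX17 (−0.45), SNAP29 (0.26), EPG5 (−0.26), TECPR1 (−0.37), PLEKHM1 (−0.77) and RUBCN (−0.79). The calls of ATG4A, ATG10, GABARAP and EPG5 were lost under at least 1 alternative setting, and the other 14 were kept under every setting. ATG7 alone was called in opposite directions in the lines, −0.37 in KP4 and 0.20 in MiaPaca2. Its MiaPaca2 call was lost in some settings, among them without MiaPaca2 DMSO replicate 1 (0.16, edgeR adjusted p = 0.0593). ATG7 also shares 1596 exonic bases with VGLL4 on the opposite strand, which rose in both lines.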

How the results depend on the processing

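Over 22 alternative settings, 12 of which left out 1 library, the counts of members called stayed within 1.5 times those reported. Of 190 member results (38 members in 5 comparisons) 115 were called; 92 kept the call under every setting, 23 lost it under at least 1 and 0 changed sign, while 17 others gained a call and 26 uncalled ones changed sign. With 1 library left out, the counts higher and lower ran from 12 to 16 and 4 to 5 in KP4, 22 to 23 and 6 to 7 in MiaPaca2, 4 to 5 and 10 to 16 for the difference of responses, 16 to 17 and 9 to 11 between lines in DMSO, and 8 to 10 and 8 to 11 in trametinib. Of all genes, these left-out fits called 20.6% to 25.2% higher and 18.9% to 25.8% lower in KP4. The shares were 31.5% to 33.9% and 27.2% to 31.1% in MiaPaca2, and 13.8% to 18.3% and 14.7% to 22.4% for the difference. Between lines they were 29.2% to 31.7% and 28.5% to 31.8% in DMSO, and 23.1% to 27.8% and 25.2% to 30.8% in trametinib. Without MiaPaca2 DMSO replicate 2 the counts were 16 and 5 in KP4, 22 and 7 in MiaPaca2, and 4 and 16 for the difference. The shares of all genes were then 25.2% and 25.8%, 33.9% and 29.2%, and 18.3% and 22.4%, in this order. Without KP4 trametinib replicate 1 the medians of all genes moved too. They went from 0.052 to 0.014 for the MiaPaca2 response and from −0.052 to 0.010 for the difference. The median difference of all genes was −0.005 with RLE scaling and −0.006 in DESeq2. How far calls that change in these settings reflect the scaling was not tested. With only the libraries compared, the counts higher became 19 in each line (30% of all genes in KP4 and 31.2% in MiaPaca2). In MiaPaca2 ATG13 (0.13, edgeR adjusted p = 0.0690), UVRAG (0.20, 0.0574), ATG2B (0.15, 0.0641) and ATG7 (0.17, 0.0894) lost the call. In KP4 RB1CC1 (0.10, edgeR adjusted p = 0.0336), PIK3C3 (0.17, 0.0147), ATG3 (0.10, 0.0187) and MAP1LC3B (0.07, 0.0488) gained it. The cause was not tested.

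Of the 44 paralog share differences 4 changed sign under 1 setting each, and none passed a test. In raw counts, not per kb, the ATG4A share between lines in trametinib went from −0.415 to 0.276 points and the MAP1LC3B share between lines in DMSO from 0.400 to −0.837. The ATG4C share in the KP4 response went from 0.514 to −0.0747 without KP4 DMSO replicate 2 (up to 1.08 without another library), and the GABARAP share between lines in trametinib from 0.488 to −0.272 without MiaPaca2 trametinib replicate 2 (up to 1.29 without another library). The cause was not tested. The deviations of same-numbered libraries were little correlated (from −0.0238 to 0.0326 over genes), which does not exclude that the numbers pair them. Each KP4 DMSO library correlated best with the same-numbered MiaPaca2 DMSO library (0.0121, 0.022 and 0.0326). In no other pair of groups did all 3 do so. With the replicate number as a block the counts higher and lower were 15 and 5 in KP4, 23 and 6 in MiaPaca2 and 4 and 14 for the difference. Between lines they were 16 and 10 in DMSO and 8 and 11 in trametinib. Of all genes, 23.9% and 24% were called with this block in KP4, 34.4% and 29.6% in MiaPaca2, and 16.1% and 19.8% for the difference. The shares between lines were 31.9% and 31.1% in DMSO, and 26.3% and 29.7% in trametinib. Depth limits VAMP8 in KP4, with 2 to 19 counts per library. The older quasi-likelihood estimate of edgeR was added as a setting after seeing the data.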
